A study of Mus musculus with 48 samples.

Results

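Hippocampal RNA of 12 male mice was compared, 6 sons of dams given manganese and 6 sons of control dams, out of 48 libraries in 8 groups of 6. Members were taken from the sex and treatment in the labels, and no measured value was used to choose them. All animals were of the outbred CD-1 stock and were 2 months old at sampling. Manganese (Mn) was given to the dams in their drinking water at 2 g/L for 8 weeks, a period that opened 2 weeks ahead of mating and closed when pups were weaned at postnatal day 21. The control label names no metal. Sons were therefore exposed through the dam and were sampled weeks after exposure had ended. The remaining groups used here are daughters of Mn and of control dams, and sons of dams given lead (Pb, 100 ppm) with or without the same dose of Mn. The labels do not state which animals were littermates, and pups of a litter are not independent, so every p-value below measures the spread between animals. The study's title places manganese, without concurrent lead, beside social processing in males, and the comparison asks which hippocampal transcripts differed in exposed sons.

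Manganese is an essential trace metal and a cofactor of arginase, glutamine synthetase and the mitochondrial superoxide dismutase. Cells take it up through the carriers SLC39A14, SLC39A8 and DMT1 (gene Slc11a2) and through the transferrin receptor, and they expel it through SLC30A10 and, in part, ferroportin (gene Slc40a1). An excess is toxic to neurons of the basal ganglia and is handled in brain mainly by astrocytes. The hippocampus is built of pyramidal neurons in the fields CA1 to CA3 and of granule cells in the dentate gyrus, and it lies against the thalamus, the choroid plexus and the meninges.

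The tissue and sex labels were checked against marker genes. The dentate granule cell factor Prox1 had at least 74.3 CPM (read counts scaled to a common library total, with TMM factors) in every son of both groups, and the CA1 gene Fibcd1 had at least 72.2 CPM. The Y-linked helicase gene Ddx3y lay between 30.5 and 40.6 CPM in the 12 sons. Xist, the RNA that silences an X chromosome in females, reached 24.4 CPM in control son 4, from 324 reads, and at most 0.321 CPM in the other 11. Its level in daughters of the Mn and control groups ran from 18 to 223 CPM. Total counts ran from 6.27 to 27.6 M (mega) reads in control sons, with a median of 15.45 M, and from 12.1 to 15.7 M in Mn sons, with a median of 13.6 M. Summed levels of 14 genes of thalamus and habenula were above 500 CPM in control sons 3, 4 and 5 and in Mn son 2, and at most 435 CPM in the other 8. These 4 libraries are called the high-thalamus libraries, and many results are also given without them. Such values set control sons 1, 2 and 6 against Mn sons 1, 3, 4, 5 and 6, and control son 6 had the lowest total, 6.27 M. They rest on fewer animals than the main fit and are given without an SE.

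No gene differed between Mn and control sons after adjustment. Of 16360 genes tested with the quasi-likelihood F test of edgeR, 0 genes (0%) had an adjusted p below 0.05, and the smallest adjusted p was 1. At an unadjusted p below 0.05 there were 314 genes (1.92%), with 150 at higher values in Mn sons (0.917%) and 164 at lower values (1%). The 1.92% is less than the share of 0.05 that this threshold passes on average when no gene differs. DESeq2 and limma voom gave 318 and 328 genes at an unadjusted p below 0.05 and 0 genes after adjustment. With upper-quartile in place of TMM factors, the unadjusted split was 179 higher and 124 lower. The unadjusted count moved to 495 without Mn son 2, to 607 in limma voom with library weights and to 1098 with no filter on low counts. The median log2 fold change of all genes was −0.01, with 7888 of 16360 above 0, and the median standard error (SE) was 0.16. The text below therefore describes levels and differences that did not pass the test. Where a difference carries an interval, it is an approximate 95% interval and gives the sizes the data could not separate.

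Manganese transporters were close to the controls. Slc39a14, which encodes an importer of manganese, zinc and iron, had a lowest, median and highest level of 31.5, 36.8 and 45.9 CPM in Mn sons and 37.1, 43.2 and 46.2 CPM in control sons. Slc39a8, the related importer, had 4.23, 5.36 and 6.02 CPM against 3.74, 4.42 and 5.58 CPM. Slc30a10, the exporter whose loss causes manganese overload, had 12.8, 16.6 and 19.6 CPM against 12.4, 16.1 and 19.7 CPM. The groups overlapped for all 3 genes. Their log2 fold changes were −0.17 ± 0.11 for Slc39a14, 0.20 ± 0.15 for Slc39a8 and 0.03 ± 0.15 for Slc30a10 (SE, n = 6 in each group). The interval for Slc30a10 ran from −0.25 to 0.32. Slc11a2, which encodes the divalent metal importer DMT1, differed by 0.12 ± 0.09, the iron exporter Slc40a1 by 0.17 ± 0.13 and the transferrin receptor Tfrc by 0.11 ± 0.20 on the log2 scale. Of 20 manganese and iron transport genes, 11 had values above 0 and none had an unadjusted p below 0.05. Their median was 0.01, beside −0.01 for all genes, and 0.04 without the high-thalamus libraries.

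**Figure D1:**
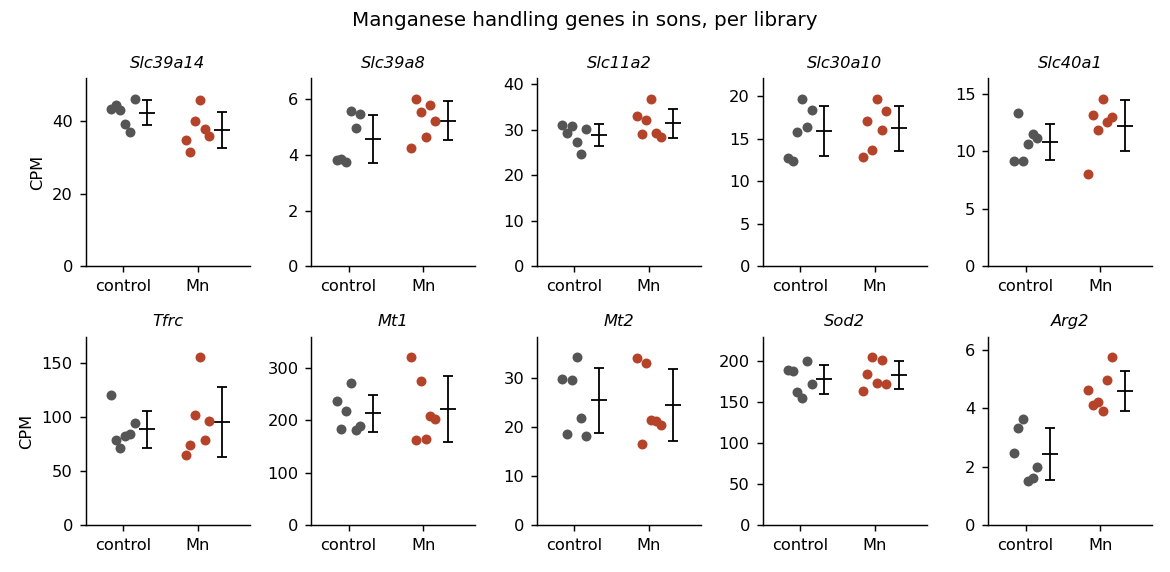
CPM (vertical axis, from 0) of 10 genes of manganese handling in the 6 control sons and the 6 Mn sons. Points are animals, and the bar beside each group is the mean with its SD. Arg2 is the gene here whose groups do not overlap.

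Metallothioneins bind zinc, copper and other metals, and their genes are switched on by the metal-sensing factor MTF1, which recognises metal-response elements in the promoter. The promoter windows of Mt1 and Mt2 are shown because they hold several such core motifs. Whether Mt1 and Mt2 respond to manganese in this tissue was not tested, so their levels do not measure the manganese load. Each window runs from 250 bases before to 50 bases after the annotated start, in RefSeq on GRCm38.p6, plus strand, at chr8:94178839-94179138 for Mt1 and chr8:94172368-94172667 for Mt2. The files use the newer build GRCm39. Capitals mark matches to TGCACNC or TGCGCNC on either strand, with no overlap between matches in these windows.
Mt1: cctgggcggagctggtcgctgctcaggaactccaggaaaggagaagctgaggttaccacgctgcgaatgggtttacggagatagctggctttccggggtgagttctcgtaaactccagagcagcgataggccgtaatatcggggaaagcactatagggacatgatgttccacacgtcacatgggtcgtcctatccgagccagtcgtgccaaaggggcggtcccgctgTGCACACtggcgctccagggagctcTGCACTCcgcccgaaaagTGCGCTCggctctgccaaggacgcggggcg
Mt2: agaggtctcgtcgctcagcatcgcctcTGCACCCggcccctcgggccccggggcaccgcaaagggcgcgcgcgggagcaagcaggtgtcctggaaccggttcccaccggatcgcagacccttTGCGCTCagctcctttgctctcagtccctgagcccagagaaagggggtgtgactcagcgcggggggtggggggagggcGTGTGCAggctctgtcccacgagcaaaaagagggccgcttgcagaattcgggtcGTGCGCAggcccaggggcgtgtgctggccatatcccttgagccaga
The Mt1 window held 3 matches and the Mt2 window 4. Of other windows searched, that of Slc30a10 held 3 with 1 overlap, that of Slc30a1 held 2, that of Mt3 held 1, and those of Slc39a8 held 0 and 1. Of 32851 windows of this length, 1.97% held at least 3 matches and 0.517% at least 4, and 25.7% held at least 1.

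The levels of both genes overlapped between the groups. Mt1 had a lowest, median and highest level of 162, 204 and 320 CPM in Mn sons and 182, 203 and 270 CPM in control sons, a log2 difference of 0.06 ± 0.22 with an interval from −0.37 to 0.49. Mt2 had 16.5, 21.3 and 34.1 CPM against 18.1, 25.7 and 34.2 CPM, a log2 difference of −0.06 ± 0.29. Mn son 1 was the highest of its group for both genes. Without it the Mt1 difference was −0.08, and without the high-thalamus libraries the differences were 0.21 for Mt1 and 0.23 for Mt2. Mt3, the metallothionein of neurons and astrocytes, differed by 0.24 ± 0.22. Of 21 metallothionein and zinc handling genes, 10 had values above 0, none had an unadjusted p below 0.05, and the median was −0.01. In heme synthesis, whose enzyme gene Alad is a classical target of lead at the protein level, 3 of 8 genes had values above 0, and Alad differed by −0.01 ± 0.18, or 0.23 without the high-thalamus libraries.

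Among enzymes that need manganese, arginase 2 stood apart from the others. Arg2, the mitochondrial arginase that turns arginine into ornithine and urea, had a lowest, median and highest level of 3.9, 4.42 and 5.75 CPM in Mn sons and 1.51, 2.22 and 3.64 CPM in control sons. All 6 Mn sons lay above the highest control son. These levels came from 48 to 93 reads per library in Mn sons and 12 to 76 in control sons. The log2 fold change was 0.91 ± 0.32, with an interval from 0.28 to 1.54, and it did not pass (edgeR adjusted p = 1, unadjusted p = 0.00723). Leaving out any son in turn gave 0.81 to 1.08, and leaving out the high-thalamus libraries gave 0.82. Glul, the glutamine synthetase of astrocytes, differed by −0.18 ± 0.14, Sod2 by 0.04 ± 0.09 and the pyruvate carboxylase gene Pcx by −0.10 ± 0.08, and Glul and Pcx were at −0.08 and 0.02 without the high-thalamus libraries. The cytosolic arginase Arg1 had 0 to 3 reads per son and was not tested.

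Genes with no overlap between the groups were few. In CPM, 11 of 16360 genes (0.0672%) were higher in all 6 Mn sons than in any control son, and 7 genes (0.0428%) were lower. Among 16360 genes some separate in this way when none differs, so a lack of overlap does not by itself mark a gene as changed. Whether these 18 exceed the number that would separate so was not tested. Of these 18, the rule for named genes took Zfp112, Dis3, Arg2, Rsph3a and Pmaip1. The higher set also held Tmem132d, Pirt, Tatdn2, Ing5, Grtp1 and 3 unnamed gene models, and the lower set also held Lrrn4cl, Cnnm2, Slco3a1, Farsb and 1 unnamed gene model. Those outside the rule are named here after their values were seen.

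Zfp112, which encodes a zinc finger protein, had the smallest unadjusted p among the genes the rule could name. Its lowest, median and highest levels were 5.46, 6.28 and 6.51 CPM in Mn sons and 3.63, 4.44 and 5.3 CPM in control sons, a log2 fold change of 0.42 ± 0.11. Dis3, the catalytic ribonuclease of the RNA exosome, had 9.79, 11.1 and 13.1 CPM against 8.17, 8.89 and 9.48 CPM, a log2 fold change of 0.34 ± 0.10. The Mn sons spread over a wider range than the control sons for Dis3 and over a narrower one for Zfp112. Tmem132d, which encodes a transmembrane protein, had 13.9, 14.5 and 19.9 CPM against 10.2, 11.9 and 13.8 CPM, a log2 fold change of 0.43 ± 0.17. Pirt, a membrane regulator of TRP channels, had 1.45, 1.79 and 2.35 CPM against 0.434, 1.18 and 1.3 CPM.

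Lower in every Mn son was Rsph3a, which encodes a radial spoke protein of motile cilia, with 2.44, 3.56 and 3.94 CPM against 4.1, 4.58 and 5.12 CPM in control sons, a log2 fold change of −0.43 ± 0.15. Its near-identical neighbour Rsph3b had 2.65, 3.26 and 4.29 CPM against 3.54, 7.16 and 9.28 CPM, a log2 fold change of −0.98 ± 0.32. For Rsph3b all 6 Mn sons lay below the control median, and the difference was −0.45 without the high-thalamus libraries. The sources used here do not say how reads shared by these copies were split, and both values are uncertain. Pmaip1, which encodes the BH3-only protein NOXA that promotes apoptosis, had 1.93, 4.25 and 5.2 CPM against 5.61, 6.3 and 9.39 CPM, a log2 fold change of −0.81 ± 0.28. Cnnm2, a membrane protein of magnesium balance, had 39.3, 43.1 and 45.5 CPM against 46, 47.7 and 57.9 CPM, a log2 fold change of −0.24 ± 0.13. Lrrn4cl rested on 2 to 5 reads per Mn son and 3 to 14 per control son.

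Other genes of small p overlapped between groups. Gng4, a gamma subunit of G proteins, had 17.3, 25.6 and 30.9 CPM in Mn sons and 14.6, 17.5 and 20.1 CPM in control sons, with 5 of 6 Mn sons above every control son and a log2 fold change of 0.50 ± 0.14. Crhbp, which encodes the protein that binds corticotropin-releasing hormone and is made by interneurons, had 10, 12.9 and 26.4 CPM against 5.94, 8.25 and 17.5 CPM. Control son 1 held the highest control value of Crhbp, and the log2 fold change was 0.77 ± 0.28 with it and 1.04 without it. Met, the receptor of hepatocyte growth factor, had 2.49, 3.61 and 4.82 CPM against 1.59, 2.11 and 2.54 CPM, a log2 fold change of 0.79 ± 0.29, with 5 of 6 Mn sons above every control son. The secreted matricellular gene Ccn3 differed by 0.72 ± 0.26, the myosin gene Myo18b by 0.61 ± 0.20, the non-coding Cpeb1os1 by 0.58 ± 0.19 (0.36 without the high-thalamus libraries), the protease-like Rhbdl3 by 0.35 ± 0.13, the ER degradation gene Edem1 by 0.28 ± 0.10 and the kinase gene Cdkl3 by 0.27 ± 0.10. The sources used here do not say whether counting used the strand, and reads of Cpeb1os1 and of the gene on its opposite strand may be mixed.

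On the lower side, Gjc1, the gap junction gene of connexin 45, rested largely on 1 library. It had 2.92, 3.88 and 5.14 CPM in Mn sons and 3.61, 5.36 and 12.5 CPM in control sons, a log2 fold change of −0.75 ± 0.24. The value was −0.43 without control son 5, which had the highest thalamic level, and −0.25 without the high-thalamus libraries. Metrnl, a secreted factor, differed by −0.58 ± 0.20, the demethylase-family gene Kdm8 by −0.54 ± 0.19, the matrix gene Fbln2 by −0.48 ± 0.17, the ErbB ligand gene Nrg2 by −0.47 ± 0.17, the glycosyltransferase gene Galnt14 by −0.43 ± 0.14, Elmod3 by −0.35 ± 0.11 and the lysosomal sulfatase gene Arsa by −0.33 ± 0.12. Fbln2 was at −0.28 without the high-thalamus libraries, and Metrnl, Kdm8 and Galnt14 were at −0.75, −0.77 and −0.54. Xist was among the 12 lower genes of smallest p on the strength of control son 4 alone, and its difference had the opposite sign without that library.

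**Figure D2:**
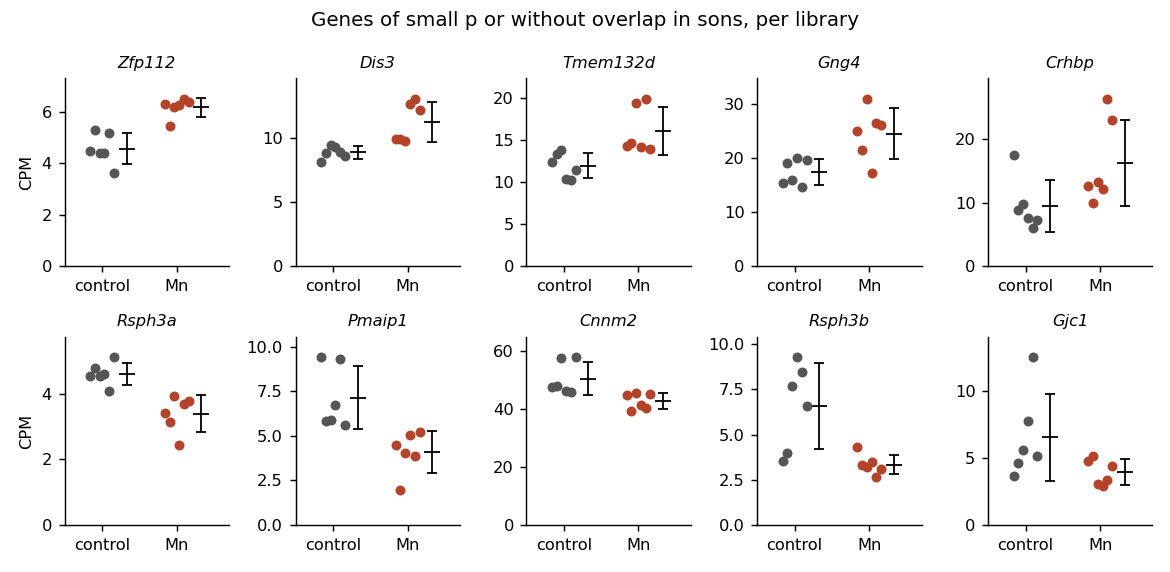
CPM (vertical axis, from 0) of 10 genes of small p or without overlap in the 6 control sons and the 6 Mn sons. Points are animals, and the bar beside each group is the mean with its SD. For Gjc1 a single control son lies far above the others.

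Receptors of the social neuropeptides showed no difference larger than their error. The oxytocin receptor gene Oxtr had a lowest, median and highest level of 3.94, 5.34 and 9.06 CPM in Mn sons and 5.58, 6.4 and 7.51 CPM in control sons. The range in Mn sons enclosed that of control sons, and the log2 difference was −0.17 ± 0.24, with an interval from −0.64 to 0.30. Avpr1b, the vasopressin receptor of CA2 neurons that is needed for social memory, had 0.371, 0.784 and 2.11 CPM against 0.3, 0.794 and 1.33 CPM, a log2 difference of 0.31 ± 0.46 that was −0.25 without the high-thalamus libraries. Avpr1a, the other brain vasopressin receptor, had at most 0.562 CPM in any son and was not tested. The oestrogen receptor gene Esr1 differed by 0.37 ± 0.29, and by −0.04 without those libraries. Of 7 genes of oxytocin, vasopressin and sex steroid signalling, 6 had values above 0 with a median of 0.26. The median was −0.07 without Mn son 4, and −0.04, with 2 of 7 above 0, without the high-thalamus libraries.

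Of 20 dopamine, serotonin, noradrenaline and acetylcholine receptor genes, 10 had values above 0, and the median was −0.04. Drd2, the D2 dopamine receptor, had 1.45, 2.1 and 4.5 CPM in Mn sons and 1.52, 4.49 and 5.99 CPM in control sons, a log2 difference of −0.82 ± 0.34 (edgeR unadjusted p = 0.0178). It was −0.38 without the high-thalamus libraries, and Mn son 2, which is 1 of them, held the highest Mn value. Drd1, the D1 receptor, differed by −0.08 ± 0.24, and by −0.31 without those libraries. Among 22 glutamate receptor genes, 10 were above 0, with the presynaptic receptor gene Grm8 at 0.43 ± 0.20. The median of the 22 was −0.03. For the 12 GABA-A receptor genes it was 0.03, with 8 above 0 and none at an unadjusted p below 0.05. For the 8 voltage-gated calcium channel genes it was 0.06, with 5 above 0 and Cacna1c, the L-type channel, at −0.27 ± 0.17. Without the high-thalamus libraries the calcium channel median was −0.07 with 3 of 8 above 0, and Cacna1c was at −0.38.

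Genes of CA1 pyramidal neurons had the highest median of the neuronal lists. All 10 tested had values above 0, with a median log2 difference of 0.44, and 0 of 10 passed adjustment. Here and in the CA1 counts below, the 10 include Lefty1, which had no read in most libraries and is described separately. In Mn sons the lowest, median and highest level of Mpped1 was 201, 242 and 278 CPM, against 106, 201 and 247 CPM in control sons, a log2 difference of 0.41 ± 0.19. Wfs1, which encodes wolframin of the endoplasmic reticulum, had 118, 205 and 396 CPM against 65.9, 160 and 256 CPM, with 3 of 6 Mn sons above every control son. The transcription factor gene Pou3f1 differed by 0.45 ± 0.25, Fibcd1 by 0.39 ± 0.27 and the Wnt pathway gene Dkk3 by 0.21 ± 0.16. Control son 5, with the highest thalamic level, had the lowest summed CA1 level, 575 CPM, while the other control sons had 860 to 1190 CPM and the Mn sons 900 to 1540 CPM. Without the high-thalamus libraries the CA1 median was 0.26, again with 10 of 10 above 0, and Mpped1, Wfs1, Pou3f1 and Dkk3 were at 0.17, 0.30, 0.31 and 0.07. In RNA of whole tissue, fewer cells of a type and less RNA per cell cannot be told apart.

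Lefty1, an inhibitor of Nodal signalling that this list counts with CA1, was present in single animals of several groups, with and without manganese. Mn son 1 had 7.65 CPM from 114 reads and Mn son 5 had 10.4 CPM from 129 reads, while the other 4 Mn sons had 0 reads. Control son 1 had 2 reads and the other 5 control sons had 0. No fitted fold change is given, since most libraries held no read. Among daughters, Mn 3 had 6.14 CPM and Mn 5 had 6.98 CPM. Sons given Pb and no Mn also held it, with 7.36, 3.9, 4.94 and 13.2 CPM in Pb sons 1, 3, 4 and 6, and Pb+Mn son 6 had 10.8 CPM.

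Lists of the other hippocampal fields had medians below 0. Of 13 CA2 and CA3 genes, 2 were above 0 with a median of −0.12, and of 12 dentate granule cell genes, 2 were above 0 with a median of −0.15. Prox1, the factor that specifies granule cells, had 81.7, 92.3 and 142 CPM in Mn sons and 74.3, 121 and 184 CPM in control sons, a log2 difference of −0.27 ± 0.21. Summed dentate levels ran from 541 to 744 CPM in Mn sons and from 456 to 925 CPM in control sons, with the lowest value in control son 4. Without the high-thalamus libraries the dentate median was −0.28, with Prox1 at −0.44, and the CA2 and CA3 median was −0.03 with 5 of 13 above 0. All 15 interneuron genes were above 0 with a median of 0.11, led by the somatostatin gene Sst at 0.47 ± 0.23, while Pvalb was at 0.22 ± 0.19 and the GABA-synthesising enzyme gene Gad1 at 0.01 ± 0.14. Without the high-thalamus libraries the interneuron median was 0.04, with 10 of 15 above 0, and Sst was at 0.30. With the thalamic level as a covariate, 12 of 15 were above 0. Of 12 genes of adult neurogenesis, 6 were above 0.

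Genes switched on by neuronal activity gave no value at an unadjusted p below 0.05. Of 22 immediate early genes, 6 were above 0 and 16 below, with a median of −0.05. Without the high-thalamus libraries, 11 of 22 were above 0. With the thalamic level as a covariate, 2 of 22 were above 0 and the median was −0.13, so the 2 adjustments moved this list in opposite directions. Arc, which regulates glutamate receptor trafficking, had 218, 339 and 504 CPM in Mn sons and 153, 398 and 425 CPM in control sons, a log2 difference of 0.00 ± 0.28. The transcription factor gene Jun differed by −0.27 ± 0.16, Fosb by −0.29 ± 0.28, Fos by −0.25 ± 0.29, Npas4 by −0.03 ± 0.36 and the neurotrophin gene Bdnf by −0.05 ± 0.22. Of 12 glucocorticoid-responsive genes, 3 were above 0, with a median of −0.11, Nfkbia at −0.36 ± 0.19 and Ddit4 at −0.27 ± 0.15. The median of these 12 was −0.06 with 2 above 0 without the high-thalamus libraries, and −0.17 with 0 above 0 with the covariate. Fos, Bdnf, Nfkbia and Ddit4 were at 0.16, −0.28, −0.21 and −0.14 without the high-thalamus libraries.

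**Figure D3:**
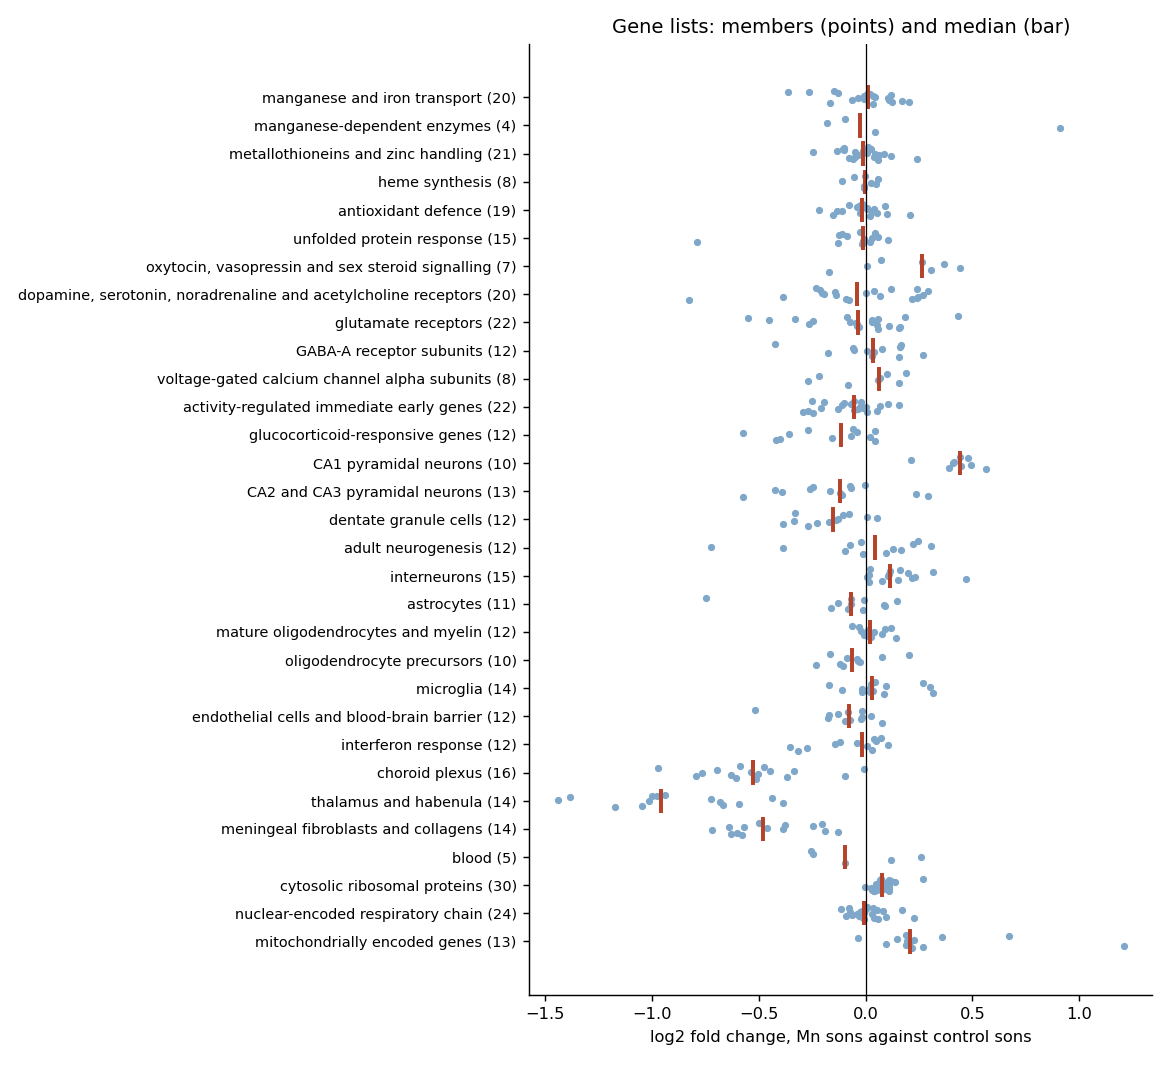
Log2 fold change of Mn sons against control sons (horizontal axis) for the members of 31 gene lists, with the number tested in brackets. Points are genes and the bar is the list's median, and Lefty1, which lies beyond the axis in the CA1 list, is not drawn. The thalamus, choroid plexus and meninges lists lie below 0 and the CA1 list above it.

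Glial lists had medians near that of all genes. Of 11 astrocyte genes, 3 were above 0 with a median of −0.07, and the glutamate transporter gene Slc1a2 differed by 0.09 ± 0.15. Of 12 myelin genes, 8 were above 0 with a median of 0.02. Mbp, the myelin basic protein gene, had 4210, 4930 and 7120 CPM in Mn sons and 3270, 4339 and 8480 CPM in control sons, a log2 difference of 0.14 ± 0.24 that became 0.39 without control son 4. Summed myelin genes were also highest in control son 4, at 16000 CPM, against 6340 to 9680 CPM in the other control sons. Without the high-thalamus libraries the myelin median was 0.21, with 12 of 12 above 0.

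Microglial genes had a median of 0.03, with 10 of 14 above 0, and −0.02 with 4 of 14 above 0 without the high-thalamus libraries. P2ry12, the purinergic receptor of resting microglia, had 40.2, 46.4 and 68.3 CPM in Mn sons and 35, 40.2 and 43.7 CPM in control sons, a log2 difference of 0.32 ± 0.12 (edgeR unadjusted p = 0.0143). Siglech, a lectin gene of microglia, differed by 0.27 ± 0.13 and the fractalkine receptor gene Cx3cr1 by 0.09 ± 0.12. Siglech and P2ry12 were at 0.20 and 0.25 without the high-thalamus libraries. Of 12 interferon response genes, 6 were above 0 with a median of −0.02. Endothelial genes had a median of −0.08, with 2 of 12 above 0, and −0.03 with 4 of 12 above 0 without the high-thalamus libraries. The clotting factor gene Vwf had a value of −0.52 ± 0.25, and −0.09 without the high-thalamus libraries.

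Of 13 genes of the mitochondrial genome, 12 were above 0, with a median of 0.21 that became 0.11 without Mn son 2. mt-Co1, a subunit of cytochrome c oxidase, differed by 0.23 ± 0.16, and 0.08 without the high-thalamus libraries. mt-Nd3, a subunit of complex I, had a value of 1.21 ± 0.54 (edgeR unadjusted p = 0.0309) at levels below 1 CPM in every son. Summed mitochondrial transcripts were highest in Mn son 2, at 59800 CPM, against 34900 to 49400 CPM in the other Mn sons and 33000 to 42300 CPM in control sons. The 24 nuclear genes of the respiratory chain had a median of −0.01, with 11 above 0. Of 30 cytosolic ribosomal protein genes, 29 were above 0, with a median of 0.08 and 0 at an unadjusted p below 0.05. Among 19 antioxidant genes, 9 were above 0 and Srxn1, a sulfiredoxin that repairs peroxiredoxins, was at −0.22 ± 0.10, and 13 of the 19 were above 0 without the high-thalamus libraries. Among 15 genes of the unfolded protein response, 6 were above 0, and the stress factor gene Atf3 was at −0.79 ± 0.39 with levels under 5 CPM in every son.

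Genes of tissue bordering the hippocampus had the lowest medians, and they rested on a few animals. All 14 thalamus and habenula genes had values below 0, with a median of −0.96, while the 8 sons outside the high-thalamus libraries gave a median of 0.32 with 11 of 14 above 0. Those libraries were chosen on these same 14 genes. For this list and its members, a shift without them follows from that choice and tests nothing. Summed thalamic levels were 198, 377, 708, 748, 1340 and 216 CPM in control sons 1 to 6 and 219, 787, 219, 257, 218 and 435 CPM in Mn sons 1 to 6. Prkcd, a kinase gene abundant in thalamus, had 26.6, 37.3 and 146 CPM in Mn sons and 29.2, 109 and 357 CPM in control sons. Its log2 difference of −1.17 ± 0.57 became −0.56 without control son 5 and −0.23 without the high-thalamus libraries. Slc17a6, the vesicular glutamate transporter of thalamic neurons, differed by −0.94 ± 0.71, and the thalamic factor gene Tcf7l2 by −1.04 ± 0.72, and they were at 0.44 and 0.21 without the high-thalamus libraries.

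Choroid plexus genes spread even more widely. Their summed levels were 283, 752, 7730, 3680, 238 and 205 CPM in control sons 1 to 6 and 343, 2740, 367, 3320, 325 and 1810 CPM in Mn sons 1 to 6. All 16 genes were below 0 with a median of −0.53. The median was 0.58 without control son 3, and 1.6 with 16 of 16 above 0 without the high-thalamus libraries. Ttr, the transthyretin gene that marks this tissue, ran from 20.1 to 4080 CPM in control sons and from 43.2 to 1730 CPM in Mn sons. Of 14 meningeal and collagen genes, all were below 0 with a median of −0.48, against 0.04 without the high-thalamus libraries. The part of these neighbouring tissues in the other differences was not tested beyond these values and a fit with the thalamic level as a covariate. In that fit the values were 0.85 for Arg2, 0.41 for Zfp112, 0.35 for Dis3, −0.45 for Rsph3a, −0.85 for Pmaip1, −0.47 for Drd2 and −0.51 for Gjc1, and the CA1 median was 0.33.

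**Figure D4:**
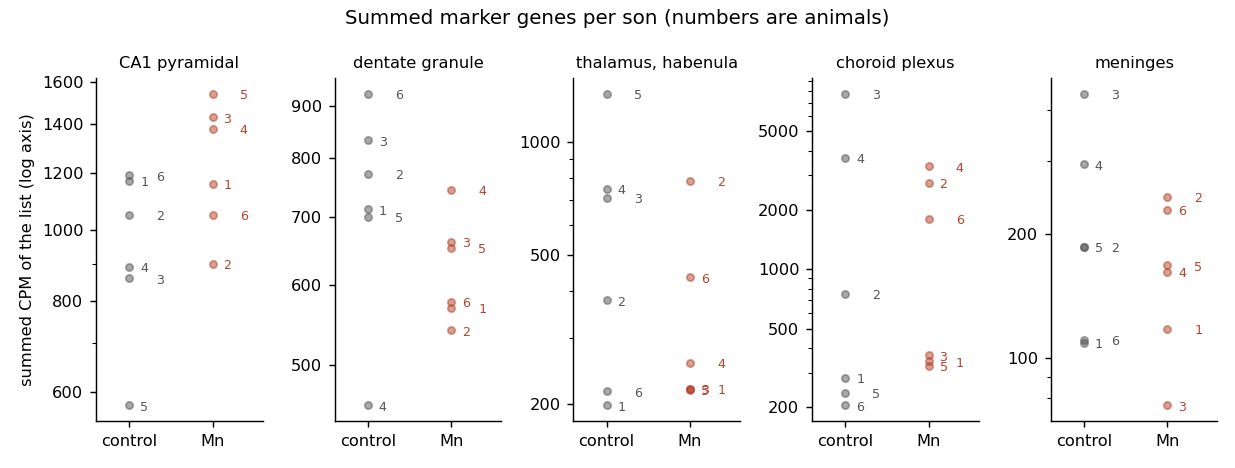
Summed CPM (vertical log axes) of 5 marker lists in control and Mn sons. Each point is an animal and carries its number. Control sons 3, 4 and 5 and Mn son 2 are high in thalamic genes, and control son 5 is the lowest in CA1 genes.

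Daughters and lead-exposed sons were used to see whether the sons' differences recurred. In daughters, Mn against control gave 0 of 16360 genes after adjustment (0%) and 424 at an unadjusted p below 0.05 (2.59%) with edgeR. The latter count was 288 without control daughter 5 and 650 without control daughter 3. The test of the difference between sexes gave 0 genes after adjustment (0%) and 138 at an unadjusted p below 0.05 (0.844%). Adding Mn to Pb in sons gave 0 genes after adjustment (0%), with a smallest adjusted p of 0.11, and 3643 at an unadjusted p below 0.05 (22.3%). That count was 1285 without Pb son 6, whose summed ribosomal protein genes were at 19000 CPM against 6890 to 11400 CPM in the other Pb sons. These comparisons share no library with Mn against control in sons. Sons and daughters of a treatment may still be littermates, since the labels do not state litters, so a recurrence in daughters may not be independent. Over all genes, the log2 fold changes of sons had a correlation of r = 0.33 with those of daughters and of −0.05 with those of Mn added to Pb, as a description over 16360 genes that are not independent. The correlation with daughters was 0.22 with the thalamic level as a covariate, and also 0.22 without control daughter 5. The correlation with Mn added to Pb was 0.04 without Pb son 6.

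Of the 24 genes of smallest p in sons, 20 had the same sign in daughters, while 61.9% of all genes did, and 3 of the 24 had an unadjusted p below 0.05 there. Without control daughter 5 the same sign was seen for 20 of the 24 and for 56.7% of all genes. For Mn added to Pb, 11 of the 24 had the same sign, beside 43.9% of all genes. The median size of the 24 differences was 0.52 in sons, where they were chosen for it, 0.22 in daughters and 0.18 for Mn added to Pb. Dis3 was at 0.21 ± 0.10 in daughters and Myo18b at 0.50 ± 0.20, while Gjc1 was at −0.54 ± 0.24. Without control daughter 5 they were at 0.23, 0.39 and −0.48. Arg2 was at 0.12 ± 0.33 in daughters and 0.04 ± 0.31 for Mn added to Pb, or 0.24 without Pb son 6. Its level ran from 2.08 to 5.95 CPM in Pb sons, whose dams had no Mn, and from 1.61 to 7.22 CPM in Pb+Mn sons. The highest Pb son was above every son given Mn alone. The difference between sexes for Arg2 was 0.79 ± 0.46 (edgeR adjusted p = 1, unadjusted p = 0.0916), so a sex difference was not shown. Pmaip1 was at −0.34 ± 0.28 in daughters and −0.02 ± 0.28 for Mn added to Pb.

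Rsph3a, Zfp112, Nrg2 and Xist were the 4 of the 24 with an unadjusted p below 0.05 in the test between sexes. None passed adjustment, and over all genes the share below 0.05 was 0.844%. The 24 were chosen for small p in sons, and this test contains the same difference in sons. Small p among them follows in part from that choice and is no separate support. Rsph3a was at 0.16 ± 0.15 in daughters and 0.30 ± 0.14 for Mn added to Pb, a difference between sexes of −0.59 ± 0.21 (edgeR unadjusted p = 0.00648). Zfp112 was at 0.07 ± 0.11 in daughters and 0.23 ± 0.11 for Mn added to Pb, a difference between sexes of 0.36 ± 0.16. Nrg2 was at 0.12 ± 0.17 and 0.42 ± 0.17 in the same order. Among the metal genes, Slc30a10 was at 0.22 ± 0.15 in daughters and −0.02 ± 0.15 for Mn added to Pb, and Mt1 was at −0.11 ± 0.22 and −0.19 ± 0.22.

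The lists differed in how far they recurred. The CA1 median, which again counts Lefty1, was 0.26 in daughters, with 10 of 10 above 0, and 0.07 for Mn added to Pb. Without control daughter 5 it was 0.14 in daughters, with 9 of 10 above 0. The thalamic median was −0.97 in daughters, with 0 of 14 above 0, and −0.34 without control daughter 5. Summed thalamic levels were 222, 220, 231, 634, 1140 and 621 CPM in control daughters 1 to 6 and 201 to 569 CPM in Mn daughters, so the groups overlapped and control daughter 5 was the highest. Dentate genes had a median of 0.08 in daughters, or 0.15 without control daughter 5, and 0.45 for Mn added to Pb, where the sons' value was −0.15. Immediate early genes had medians of 0.05 in daughters, or 0.01 without control daughter 5, and 0.41, with 22 of 22 above 0 for Mn added to Pb.

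The interferon response values rested largely on the same animal. Their median in daughters was −0.84 with 0 of 12 above 0, and −0.17 with 2 of 12 above 0 without control daughter 5, beside −0.02 in sons. Their summed level was 390 CPM in control daughter 5 and 127 to 279 CPM in the other control daughters. Irf7, a master factor of the interferon response, was at 17.4 CPM in control daughter 5 and 0.921 to 3.84 CPM in the others. Its log2 difference in daughters was −1.80 ± 0.47 with this animal and −0.65 ± 0.37 without it, and the difference between sexes was 1.45 ± 0.68 and 0.29 ± 0.53. Ifitm3, an antiviral membrane protein gene, was at −0.80 ± 0.26 and −0.28 ± 0.20. Myelin genes had a median of −0.34 in daughters, with 0 of 12 above 0, and −0.32 without control daughter 5, beside 0.02 in sons.

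**Figure D5:**
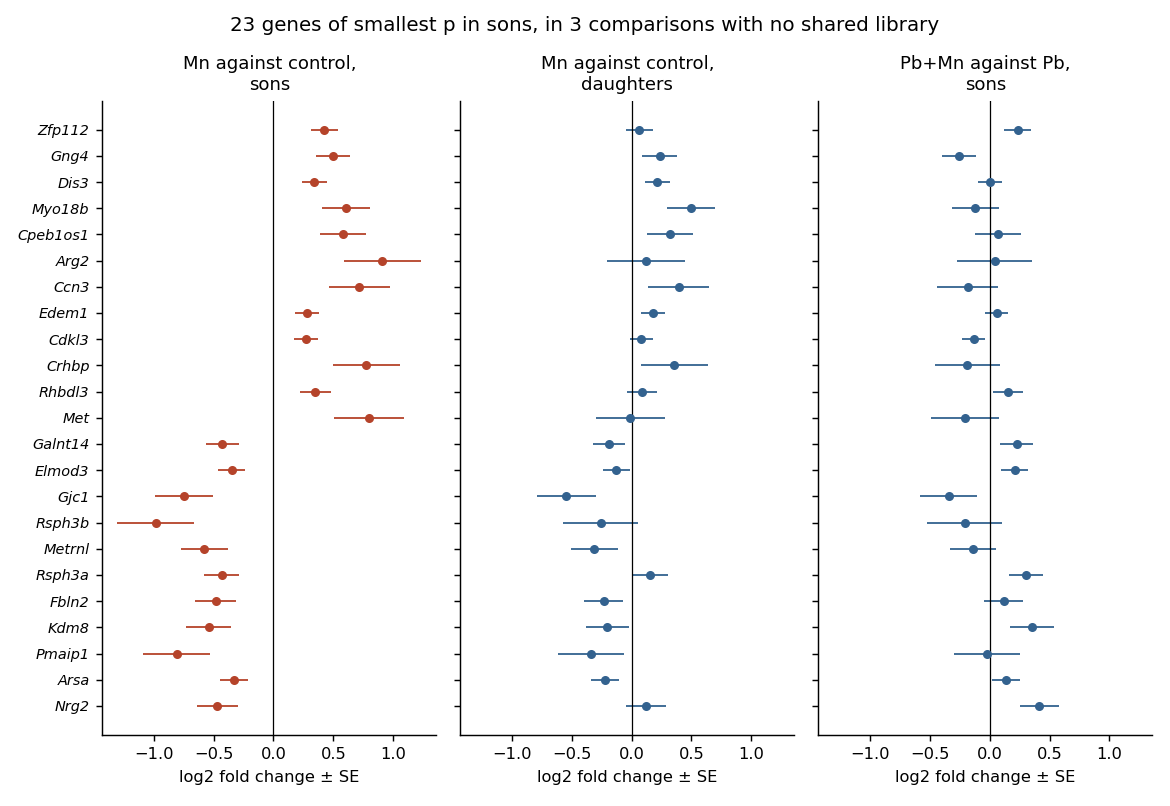
Log2 fold change (horizontal axis, with SE) of 23 of the 24 genes of smallest p in sons, without Xist, in Mn against control sons, Mn against control daughters and Pb+Mn against Pb sons. The genes were chosen on the first panel, and the other panels share no library with it. The median size of all 24 differences was 0.52, 0.22 and 0.18 in the order of the panels.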

How the data were processed

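The authors deposited 1 table of raw counts, whole numbers of reads for every gene and library. The submitters' processing notes name the mouse build GRCm39 and the tools STAR 2.7.10b, Trim Galore 0.6.9, featureCounts 2.0.6, limma and edgeR under R 4.4.2, and per the labels' protocols the libraries came from a stranded poly(A) kit and paired reads of 100 bases. The sources used here do not say how featureCounts treated strand and multi-mapping reads. Of 57126 gene identifiers, 51884 matched a symbol, and these held 99.52% of counts. Groups follow the labels' sex and treatment. No pair of libraries in a group agreed within sampling noise (lowest chi-square per degree of freedom 8.98).

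All 48 libraries were fitted together, with a term for each of the 8 groups, in edgeR 4.0.16 under R 4.3.3 (quasi-likelihood F test, two-sided, TMM factors, filterByExpr). Benjamini-Hochberg adjustment ran over the 16360 genes tested, at a threshold of 0.05, and the SE was derived from the log2 fold change and its F value. Intervals are the fold change ± 1.96 SE. CPM values use TMM-scaled totals, and intervals and levels cover the animals measured and not litters. Depth was 6.27 to 27.6 M counts per library over the series, and the median SE was 0.16. The fit was tested on simulated data. Alternatives were DESeq2 1.42.0, limma 3.58.1 voom with and without library weights, RLE and upper-quartile factors, other filters, only the groups compared, a replicate block and each replicate left out. A robust fit, the thalamic level as a covariate and the 4 high-thalamus libraries (summed level above 500 CPM) left out were added after seeing the data.

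The genes named are the 12 higher and 12 lower of smallest p whose log2 CPM averaged 0 or more, leaving out unnamed models and pseudogenes, the 2 of smallest p in each of 32 lists, 20 fixed genes, and, chosen after seeing values, further members and non-overlapping genes. A selection of these is given, and some members are left out here. The members and lists were chosen with earlier results of these data known. Promoter sequences came from RefSeq on GRCm38.p6, and both Mt1 and Mt2 were matched by symbol.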

Additional observations from a re-analysis of the deposited data

Results flagged for a closer look

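A value was picked out where the highest or lowest of 6 animals lay apart from its group by more than Dixon's critical share of the range at the 95 percent level. Chance picks out about 1 in 20 groups where values are normally spread, and 22 of 263 groups of values were picked out. The values were CPM without a log, and a single library with reads among libraries at 0 is picked out at any level. The 22 therefore do not measure an excess over chance. Control son 4 was the highest control son for Xist (24.4 CPM), Glul (2530 CPM), Mbp (8480 CPM), the summed genes of manganese-dependent enzymes (2800 CPM) and the summed myelin genes (16000 CPM). Control son 1 was the highest for Crhbp (17.5 CPM), Sst (128 CPM) and Lefty1 (0.145 CPM) and the lowest for Pirt (0.434 CPM). Control son 5 was the highest for Prkcd (357 CPM) and the lowest for Siglech (9.64 CPM). Mn son 2 was the highest Mn son for Drd2 (4.5 CPM), Tcf7l2 (60.3 CPM) and Xist (0.321 CPM) and the lowest for Zfp112 (5.46 CPM). Mn son 1 was the highest for Alad (39.5 CPM), the haemoglobin gene Hba-a1 (98.5 CPM) and the summed blood genes (323 CPM). Outside the sons of Mn and control dams, control daughter 5 was the highest control daughter for Irf7 (17.4 CPM) and Ifitm3 (36.7 CPM), control daughter 2 for Lefty1 (0.0404 CPM), and Pb+Mn son 6 was the highest of its group for Lefty1 (10.8 CPM).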

How the results depend on the processing

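No gene passed an adjusted p of 0.05 in Mn against control sons, or in the test between sexes, under any alternative run. The smallest adjusted p for sons ranged from 0.114 (DESeq2) to 1. The count at an unadjusted p below 0.05, 314 genes, was 607 in limma voom with library weights and 1098 with no filter on low counts, where 36923 genes were tested, and 221 to 495 with 1 son left out. In daughters, fitting only the groups compared gave 1 gene. For Mn added to Pb in sons, DESeq2 gave 227 genes, limma voom with library weights 471, the groups compared alone 1, and leaving out 1 animal 0 to 1041, with 878 without Pb son 2 and 1041 without Pb son 5. The unadjusted count for Mn added to Pb was lowest, 1285, without Pb son 6. The cause of these moves was not tested.

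Whether the replicate numbers pair the animals is not known. Same-numbered Mn and control sons had correlations of deviations of 0.051, −0.049, −0.277, −0.052, −0.013 and −0.344. Those of differently numbered sons ran from −0.417 to 0.446, a spread in which a shared litter or batch could be missed. The replicate block gave 0 genes after adjustment and 319 at an unadjusted p below 0.05 in sons. Of the 24 genes of smallest p, 1 (Xist) changed sign under at least 1 of 24 alternatives. These 24 were chosen for small p in the same libraries, so a stable sign is no separate support. Of all 124 named genes tested, 30 changed sign under at least 1 alternative. The same held for 9 of the 89 whose difference exceeded 1 SE. Of 32 lists, 3 had a median that moved by at least 1 SD between animals. No alternative moved the median of all genes by more than 0.1. With 6 animals and a median SE of 0.16, small differences could not be separated from 0.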

Other observations

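Further genes of the lists, chosen after their values were seen, are given as values in sons. The dentate granule cell gene Dsp, a desmosome protein, differed by −0.39 ± 0.26 and Stxbp6 by −0.33 ± 0.18, and the same genes were at 0.84 ± 0.26 and 0.42 ± 0.18 for Mn added to Pb. Gabrd, the delta subunit of extrasynaptic GABA-A receptors, was at −0.42 ± 0.25 and 0.10 without the high-thalamus libraries, while the alpha 3 subunit gene Gabra3 was at 0.27 ± 0.14 and 0.43. The collagen genes Col1a1 and Col1a2 were at −0.58 ± 0.30 and −0.63 ± 0.31, and Col1a2 was at 0.04 without those libraries. Calb2, the calretinin gene, was at −0.73 ± 0.51 and 0.47 without them. It belongs to the thalamus and habenula list on which those libraries were chosen, so this shift follows from that choice and tests nothing. The haemoglobin gene Hba-a1 differed by −0.10 ± 0.45, and by −0.44 without Mn son 1.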
